A study of Homo sapiens with 12 samples.

Results

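The genes described are the 10 core kinases and adaptors of the Hippo pathway: the kinases STK3, STK4, LATS1 and LATS2, their adaptors SAV1, MOB1A and MOB1B, and the membrane-side activators NF2, WWC1 and FRMD6. They were picked by name from the 46931 genes of the deposited table, restricted to entries on assembled chromosomes. All 10 passed the filter on low counts and are among the 18143 genes tested. RNA was sequenced from MCF10A, an immortalized human mammary epithelial line of wild-type genotype that is grown with serum, insulin, hydrocortisone and epidermal growth factor. The siYT_XMU cells received siRNA against YAP and TAZ, then 5 µM XMU-MP1, which inhibits the MST1 and MST2 kinases. The siYT_DMSO cells received the same siRNA, then DMSO, the solvent. The siC_XMU cells received a control siRNA at 22 nM, then 5 µM XMU-MP1. The siC_DMSO cells received the control siRNA, then DMSO. The labels give 11 nM of 2 different siRNA sets, and do not say which set each library received. The drug or solvent was added 48 h after transfection, for 6 h. Each group has 3 libraries, lettered a, b and c. Whether the letters are separate cultures is not stated, so p-values measure the spread between these libraries, which may be technical.

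The Hippo pathway restrains the growth-promoting coactivators YAP and TAZ (gene WWTR1). In its core, the MST kinases with SAV1 phosphorylate and activate the LATS kinases with MOB1, and LATS in turn phosphorylates YAP and TAZ, which keeps them out of the nucleus. In epithelial cells NF2, WWC1 and FRMD6 bring the core to the membrane and its junctions. In the nucleus YAP and TAZ act through TEAD factors, and LATS2 is known as one of the genes they induce, so the pathway contains a feedback loop. The table measures RNA, not kinase activity.

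Library totals lay between 8243351 counts (library c of siYT_XMU) and 67953633 counts. That library stood apart, with 35.0% of its counts on ribosomal RNA genes, against at most 8.35% in any other library, and a count in 15135 genes, against at least 17950. These shares include mitochondrial ribosomal RNA, which took 26.4% of counts in library c of siYT_XMU. Ribosomal RNA took 1.86 to 8.35% in the other siYT libraries and 1.02 to 2.52% in siC libraries. The lowest count of a core gene in library c of siYT_XMU was 34 (LATS2). YAP1 stood at 5.28 ± 1.41 CPM in siYT_XMU and 136 ± 4.97 CPM in siC_XMU, and at 9.86 ± 2.49 CPM in siYT_DMSO and 206 ± 15.4 CPM in siC_DMSO (SD, n = 3 each). CPM are read counts scaled to library size with TMM factors. WWTR1 stood at 4.14 ± 0.427 CPM in siYT_DMSO and 32.3 ± 7.37 CPM in siC_DMSO. In siYT_XMU it had 2.11, 1.24 and 0 CPM, where the 0, in library c, allows up to 0.622 CPM, and in siC_XMU 57.7 ± 2.31 CPM. The 7 epithelial markers summed to between 2271 and 7967 FPKM in every library, but their members differed between the siRNA arms in opposite directions. KRT5 lay at 473 to 931 FPKM in siYT_DMSO and 2119 to 2512 FPKM in siC_DMSO, and EPCAM at 47.4 to 74.96 FPKM in siYT_DMSO and 121.5 to 166 FPKM in siC_DMSO. KRT17 lay at 2202 to 5556 FPKM in siYT_DMSO and 402 to 561 FPKM in siC_DMSO, and CDH1 at 113 to 127 FPKM in siYT_DMSO and 30.8 to 56.7 FPKM in siC_DMSO. Among these markers TP63 also differed with XMU-MP1, at 0.3407 to 0.6133 FPKM in siC_XMU and 3.517 to 4.499 FPKM in siC_DMSO. After the knockdown TP63 lay at 0.3734 to 0.946 FPKM in siYT_XMU and 1.562 to 3.066 FPKM in siYT_DMSO. The part of these shifts in the results was not tested. FPKM divides fragments by transcript length and library total. The 4 fibroblast markers summed to at most 12.1 FPKM and the 3 endothelial ones to at most 0.863 FPKM. Of the 3 leukocyte markers PTPRC reached at most 0.411 FPKM and CD3E at most 0.161 FPKM, so that CD14 made up nearly all of their sum of 4.57 to 35.3 FPKM. In such bulk samples fewer cells of a type and less RNA per cell cannot be told apart.

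Per length, the core genes differed widely, with MOB1A highest by mean in every group. In siYT_XMU its libraries overlapped with those of NF2, and in library c NF2 was higher (8.67 FPKM, against 7.46 FPKM for MOB1A). In the order of mean FPKM in siYT_DMSO MOB1A, which binds and activates LATS kinases, led at 9.88 ± 1.37 FPKM. NF2 (the protein merlin) followed at 7.15 ± 0.133 FPKM and STK4 (the kinase MST1) at 5.69 ± 1.09 FPKM. WWC1 (the protein KIBRA) had 5.05 ± 0.455 FPKM and SAV1, the scaffold of the MST kinases, 4.67 ± 0.666 FPKM, and libraries of STK4, WWC1 and SAV1 overlapped between neighbours in this order. FRMD6, a FERM-domain protein, had 2.19 ± 0.305 FPKM, MOB1B 2.17 ± 0.410 FPKM and LATS1 2.04 ± 0.232 FPKM, again with overlap between neighbours. LATS2, the fellow kinase of LATS1, stood at 1.10 ± 0.185 FPKM and STK3 (the kinase MST2) was last at 0.648 ± 0.0189 FPKM, and neither overlapped with a neighbour. In siYT_XMU LATS2 at 0.593 ± 0.0757 FPKM and STK3 at 0.576 ± 0.108 FPKM were also lowest, where library c is scaled to a total that is 35.0% ribosomal RNA.

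In siC_DMSO the order was another. MOB1A led at 26.2 ± 2.52 FPKM, with WWC1 at 16.6 ± 1.58 FPKM, NF2 at 14.4 ± 3.86 FPKM and SAV1 at 11.2 ± 0.930 FPKM behind it. Libraries of WWC1 overlapped with those of NF2, and those of NF2 with those of SAV1. STK4 had 7.83 ± 1.82 FPKM and FRMD6 7.03 ± 0.451 FPKM, also with overlap. LATS2 stood at 3.92 ± 0.0631 FPKM, above LATS1 at 3.21 ± 0.458 FPKM, where it lay below LATS1 in siYT_DMSO. MOB1B at 2.74 ± 0.912 FPKM and STK3 at 2.67 ± 0.283 FPKM came last, and LATS1, MOB1B and STK3 overlapped between neighbours. The order depends on the length the authors used. For STK3 the FPKM and counts together give a length of 10.7 kb, although its longest coding transcript in GENCODE is 3.11 kb, and for MOB1A these lengths are 5.32 kb and 4.88 kb. With 1 length per gene, comparisons within a gene are not touched by this.

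**Figure D1:**
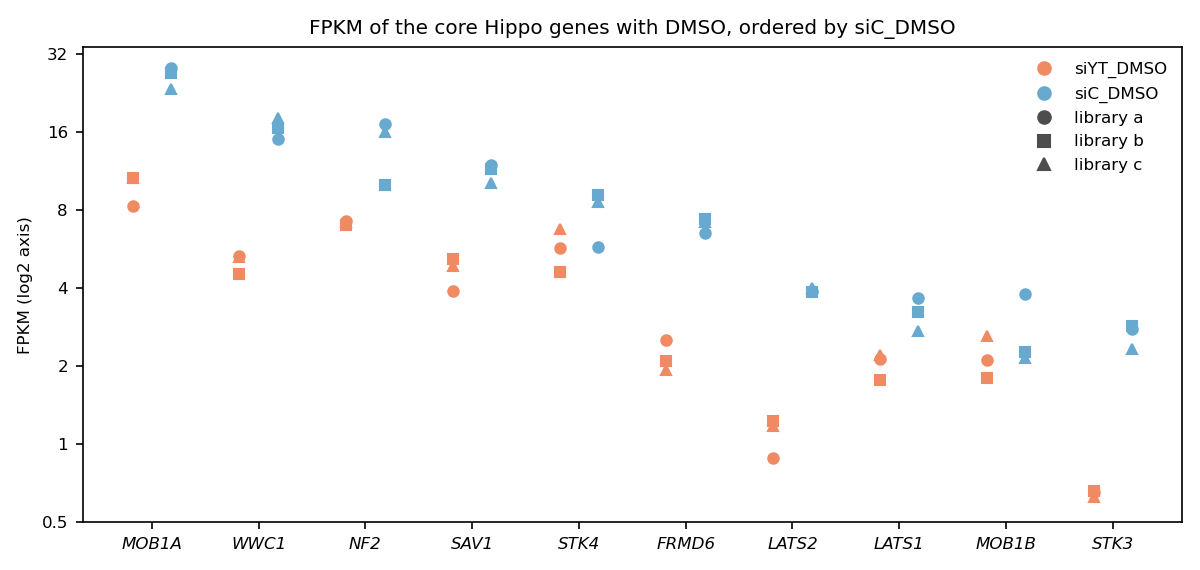
FPKM of each core gene (log2 axis) in every siYT_DMSO and siC_DMSO library, with genes ordered by their mean in siC_DMSO and marker shapes for the libraries a, b and c. MOB1A is highest in both groups, and LATS2 and STK3 are lowest in siYT_DMSO.

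The knockdown in DMSO asks how the core genes respond to losing YAP and TAZ when no drug is given. Of the 10 core genes 7 fell and 0 rose: STK3, SAV1, MOB1A, LATS2, NF2, WWC1 and FRMD6. STK3 was at 0.279 times its control level, LATS2 at 0.319 times and FRMD6 at 0.357 times. STK4, MOB1B and LATS1 did not pass the test. A gene was called with edgeR's quasi-likelihood test at a Benjamini-Hochberg adjusted p under 0.05 over all genes tested. By that rule 16% of all genes were lower and 16.1% higher. The median log2 fold change of the 10 genes was -1.15, against 0.02 over all genes. In 8 of the 10 every siYT_DMSO library lay below every siC_DMSO library, as in 27.9% of all genes. Ribosomal RNA took 8.35, 3.64 and 1.86% of counts in siYT_DMSO and 2.15, 1.05 and 1.32% in siC_DMSO. With ribosomal RNA genes and SLCO5A1, a gene with up to 12.6% of a library's counts, left out of the scaling, the count of core genes called was also 7.

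Of the MST kinases and their scaffold, STK3 and SAV1 fell. STK3 (chr8:98433048-98944329, minus strand of GRCh38.p13, ID 6788) had 7.42, 6.59 and 6.45 CPM in siYT_DMSO, against 25.4, 26.4 and 21.5 CPM in siC_DMSO. The groups lay far apart, with a log2 fold change of -1.84 (SE 0.22, adjusted p = 6.27e-05). STK4 (chr20:44966470-45080021, plus strand, ID 6789) had 59.1, 42.1 and 64.3 CPM in siYT_DMSO, against 48.3, 77.7 and 72.8 CPM in siC_DMSO. The groups overlapped (-0.27, SE 0.29, adjusted p = 0.54). SAV1 (chr14:50633104-50668297, minus strand, ID 60485) had 17.0, 19.8 and 19.4 CPM in siYT_DMSO, against 42.0, 41.0 and 36.03 CPM in siC_DMSO. All knockdown libraries were lower (-1.08, SE 0.18, adjusted p = 0.000669). Of the 50-base stretches of its GENCODE transcripts 21.6% occur in another gene, ATL1 for most. Both strands were searched and not counted apart, so the share that stranded reads could confuse is not known. How the authors' counting treated shared reads is not stated. For STK3 no such stretch occurs in another gene.

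Of the LATS kinases LATS2 fell. LATS2 (chr13:20973036-21061549, minus strand, ID 26524) had 6.01, 7.31 and 7.30 CPM in siYT_DMSO, against 21.4, 21.4 and 22.0 CPM in siC_DMSO. The control libraries differed from each other by a coefficient of variation of 1.71%, the smallest of any core gene in any group, and the groups did not overlap (-1.65, SE 0.26, adjusted p = 0.000532). LATS1 (chr6:149658153-149718256, minus strand, ID 9113) had 21.9, 16.1 and 20.8 CPM in siYT_DMSO, against 30.5, 27.2 and 23.1 CPM in siC_DMSO. Every knockdown library was lower, but the adjusted p missed the threshold (-0.46, SE 0.39, adjusted p = 0.421).

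Of the MOB1 coactivators MOB1A fell. MOB1A (chr2:74152528-74178879, minus strand, ID 55233) had 46.6, 52.8 and 54.9 CPM in siYT_DMSO, against 128, 125 and 107 CPM in siC_DMSO. The groups did not overlap (-1.22, SE 0.15, adjusted p = 9.83e-05). MOB1B (chr4:70901970-70988174, plus strand, ID 92597) had 20.8, 15.6 and 23.5 CPM in siYT_DMSO, against 30.3, 18.4 and 17.4 CPM in siC_DMSO. The groups overlapped (-0.14, SE 0.34, adjusted p = 0.803). Of the 50-base stretches of MOB1A 0.993% occur in another gene, and of those of MOB1B 0.0834%.

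All of the membrane-side activators fell. WWC1 (chr5:168291645-168472303, plus strand, ID 23286) had 47.0, 35.1 and 42.4 CPM in siYT_DMSO, against 107, 120 and 130 CPM in siC_DMSO. No library overlapped (-1.52, SE 0.27, adjusted p = 0.000967). FRMD6 (chr14:51489100-51730727, plus strand, ID 122786) had 17.7, 13.1 and 12.5 CPM in siYT_DMSO, against 37.2, 42.6 and 41.2 CPM in siC_DMSO. Here too the groups stood apart (-1.49, SE 0.20, adjusted p = 0.000187). NF2 (chr22:29603556-29698600, plus strand, ID 4771) had 58.4, 49.7 and 53.0 CPM in siYT_DMSO, against 112, 66.1 and 106 CPM in siC_DMSO. The groups did not overlap, but library b of siC_DMSO lay close to the knockdown (-0.82, SE 0.26, adjusted p = 0.0311). The NF2 call ended when any 1 of 6 libraries was left out, which were all of siYT_DMSO, a and c of siC_DMSO and a of siC_XMU, with adjusted p values of 0.0554 to 0.116.

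**Figure D2:**
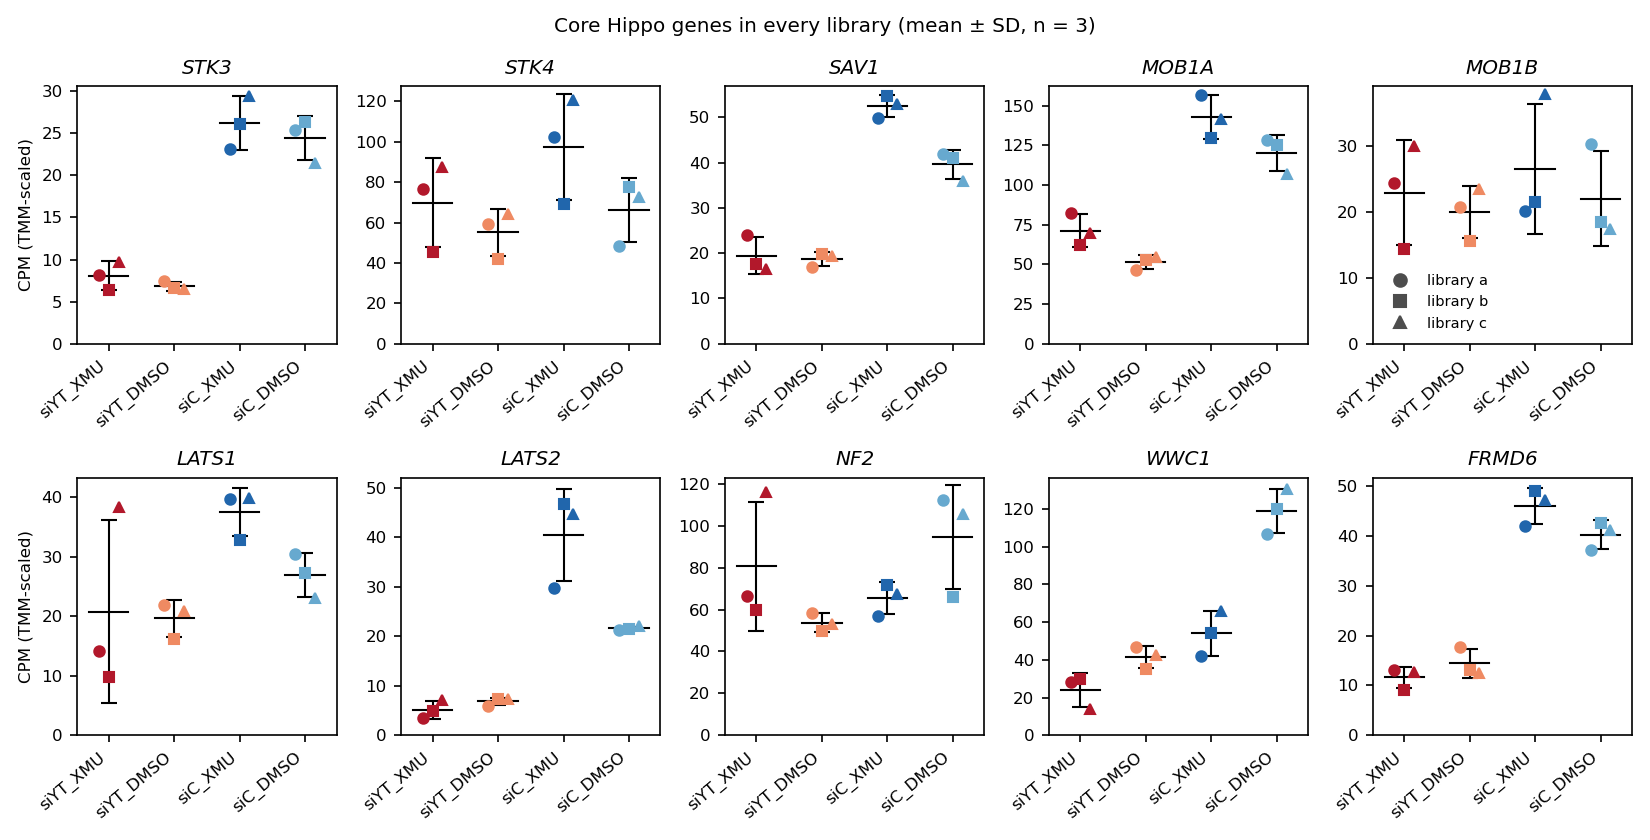
TMM-scaled CPM of each core gene in every library, by group, with the mean and SD of 3 libraries as lines and marker shapes for the libraries. STK3, SAV1, MOB1A, LATS2 and FRMD6 are lower in both siYT groups than in both siC groups, and LATS1 and NF2 have 1 high library in siYT_XMU, which is c.

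The knockdown was also compared under XMU-MP1. Of the 10 core genes 6 fell and 0 rose, namely STK3, SAV1, MOB1A, LATS2, WWC1 and FRMD6. The background was 18.6% of all genes lower and 17.7% higher, so that 48.8% of calls were higher, against 24.2% on log2(FPKM + 0.1), and the medians were -1.08 for the core genes and 0.04 for all genes. The same 6 had no overlap between groups, as 25.9% of all genes did in this direction. LATS2 moved most, to 3.52, 4.85 and 7.04 CPM in siYT_XMU, against 29.7, 46.8 and 44.8 CPM in siC_XMU. That is 8.11-fold lower (log2 fold change -3.02, SE 0.28, adjusted p = 1.61e-05). FRMD6 had 13.1, 9.15 and 12.6 CPM in siYT_XMU, against 42.0, 49.1 and 47.2 CPM in siC_XMU (-2.00, SE 0.21, adjusted p = 3.26e-05). STK3 had 8.16, 6.40 and 9.74 CPM in siYT_XMU, against 23.1, 26.0 and 29.4 CPM in siC_XMU (-1.71, SE 0.22, adjusted p = 0.000114). For these 3 genes each knockdown library lay well under the lowest control one.

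SAV1 had 24.1, 17.6 and 16.6 CPM in siYT_XMU, against 49.8, 54.7 and 52.9 CPM in siC_XMU (-1.43, SE 0.18, adjusted p = 0.000115). MOB1A had 82.2, 62.0 and 69.6 CPM in siYT_XMU, against 157, 130 and 142 CPM in siC_XMU (-1.003, SE 0.15, adjusted p = 0.000372). WWC1 had 28.4, 29.8 and 13.9 CPM in siYT_XMU, against 42.1, 54.4 and 65.8 CPM in siC_XMU (-1.15, SE 0.27, adjusted p = 0.00533). WWC1 was lowest in library c of siYT_XMU and passed without it too (-0.90, adjusted p = 0.00543). The other genes did not pass. LATS1 had 14.1, 9.82 and 38.3 CPM in siYT_XMU, against 39.6, 32.8 and 39.9 CPM in siC_XMU (log2 fold change -0.89, SE 0.40, adjusted p = 0.102). Its coefficient of variation of 74.2% in siYT_XMU was the largest of any core gene in any group, through library c. Without library c LATS1 was lower by the test (-1.66, adjusted p = 0.000342) and 7 core genes fell.

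NF2 had 66.2, 59.6 and 116 CPM in siYT_XMU, against 56.9, 71.5 and 67.6 CPM in siC_XMU (0.30, SE 0.26, adjusted p = 0.404), and -0.06 without library c. STK4 had 76.5, 45.4 and 87.6 CPM in siYT_XMU, against 102, 69.1 and 121 CPM in siC_XMU (-0.48, SE 0.29, adjusted p = 0.214). MOB1B had 24.5, 14.4 and 30.04 CPM in siYT_XMU, against 20.2, 21.5 and 38.0 CPM in siC_XMU (-0.22, SE 0.34, adjusted p = 0.653). In all 3 genes the groups overlapped. Ribosomal RNA took 5.38, 2.65 and 35.0% of counts in siYT_XMU and 2.52, 1.21 and 1.02% in siC_XMU, and the count of core genes called was also 6 with ribosomal RNA genes and SLCO5A1 left out of the scaling.

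XMU-MP1 in control siRNA asks what the inhibitor of the kinases encoded by STK4 and STK3 changed with YAP and TAZ present. LATS2 rose and WWC1 fell, and the other 8 core genes did not pass. In the background 4% of all genes were higher and 5.26% lower, and the medians were 0.26 for the core genes and -0.02 for all genes. LATS2 stood at 29.7, 46.8 and 44.8 CPM in siC_XMU, against 21.4, 21.4 and 22.0 CPM in siC_DMSO. Every XMU-MP1 library was higher (log2 fold change 0.91, SE 0.26, adjusted p = 0.0484). This call is close to the threshold and was lost in 12 of 21 alternatives. In 9 of these 1 library was left out, any of siC_DMSO or siYT_DMSO, b or c of siC_XMU, or b of siYT_XMU. Over all 21 alternatives, calls kept and lost, the adjusted p ranged over 0.00646 to 0.202. WWC1 stood at 42.1, 54.4 and 65.8 CPM in siC_XMU, against 107, 120 and 130 CPM in siC_DMSO. Every XMU-MP1 library was lower, as in 22.1% of all genes (-1.14, SE 0.26, adjusted p = 0.0202). The WWC1 call was lost in 5 of 21 alternatives, 4 of them without library b or c of siC_DMSO or a or b of siC_XMU (adjusted p 0.000282 to 0.0896 over all 21).

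The targets of the drug themselves did not pass. STK3 had 23.1, 26.0 and 29.4 CPM in siC_XMU, against 25.4, 26.4 and 21.5 CPM in siC_DMSO (0.10, SE 0.21, adjusted p = 0.856). STK4 had 102, 69.1 and 121 CPM in siC_XMU, against 48.3, 77.7 and 72.8 CPM in siC_DMSO (0.55, SE 0.29, adjusted p = 0.279). In both the groups overlapped. SAV1 had 49.8, 54.7 and 52.9 CPM in siC_XMU, against 42.0, 41.0 and 36.03 CPM in siC_DMSO (0.40, SE 0.18, adjusted p = 0.193). LATS1 had 39.6, 32.8 and 39.9 CPM in siC_XMU, against 30.5, 27.2 and 23.1 CPM in siC_DMSO (0.48, SE 0.39, adjusted p = 0.53). For MOB1A the values were 157, 130 and 142 CPM in siC_XMU, against 128, 125 and 107 CPM in siC_DMSO (0.25, SE 0.15, adjusted p = 0.356). In SAV1, LATS1 and MOB1A, and in LATS2, every XMU-MP1 library lay above every DMSO one, which holds for 18.6% of all genes. NF2 (-0.53, adjusted p = 0.242), MOB1B (0.27, adjusted p = 0.726) and FRMD6 (0.19, adjusted p = 0.645) had overlapping groups.

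After the knockdown XMU-MP1 changed 0 of the 10 core genes by edgeR's test, with 3 at an unadjusted p under 0.05, in a background of 4.19% of all genes higher and 7.92% lower. The medians were 0.12 for the core genes and 0.02 for all genes. MOB1A had 82.2, 62.0 and 69.6 CPM in siYT_XMU, against 46.6, 52.8 and 54.9 CPM in siYT_DMSO (0.47, SE 0.15, adjusted p = 0.0655). WWC1 had 28.4, 29.8 and 13.9 CPM in siYT_XMU, against 47.0, 35.1 and 42.4 CPM in siYT_DMSO (-0.77, SE 0.26, adjusted p = 0.0828), and -0.51 without library c of siYT_XMU (adjusted p = 0.11). NF2 had 66.2, 59.6 and 116 CPM in siYT_XMU, against 58.4, 49.7 and 53.0 CPM in siYT_DMSO (0.58, SE 0.26, adjusted p = 0.179), and was at 0.225 without library c of siYT_XMU (adjusted p = 0.521). In each of these 3 the groups did not overlap, which 10.5% of all genes show upward and 16.7% downward. DESeq2 called 2 core genes, MOB1A higher (adjusted p = 0.00615) and WWC1 lower (adjusted p = 0.0413). MOB1A also passed edgeR without library b of siYT_XMU (adjusted p = 0.0417). LATS2 had 3.52, 4.85 and 7.04 CPM in siYT_XMU, against 6.01, 7.31 and 7.30 CPM in siYT_DMSO (log2 fold change -0.46, SE 0.27, adjusted p = 0.296), with overlap. The log2 fold change of LATS1 was 0.05 (adjusted p = 0.966) and -0.72 without library c of siYT_XMU (adjusted p = 0.0543).

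Whether the response to XMU-MP1 depended on the knockdown was tested as an interaction, the log2 fold change of XMU-MP1 after knockdown minus that in control siRNA. It called 0 core genes by edgeR, in a background of 0.86% of all genes higher and 1.73% lower. At an unadjusted p under 0.05 were 2 core genes, LATS2 and NF2. By that p LATS2 ranked 786 and NF2 1519 among the 18143 genes tested. LATS2 had an interaction of -1.37 (SE 0.37, adjusted p = 0.0735), with a response of -0.46 after knockdown and 0.91 in control siRNA. NF2 had 1.11 (SE 0.37, adjusted p = 0.128), with a response of 0.58 after knockdown and -0.53 in control siRNA. DESeq2 called both (adjusted p = 0.00967 for LATS2 and 0.0498 for NF2). Without library c of siYT_XMU edgeR called LATS2 (-1.62, adjusted p = 0.0227) and LATS1 (-1.19, adjusted p = 0.0464), while NF2 stood at 0.76 (adjusted p = 0.141). For WWC1 the interaction was 0.37 (SE 0.37, adjusted p = 0.659), with a response of -0.77 after knockdown, which did not pass, and -1.14 in control siRNA.

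**Figure D3:**
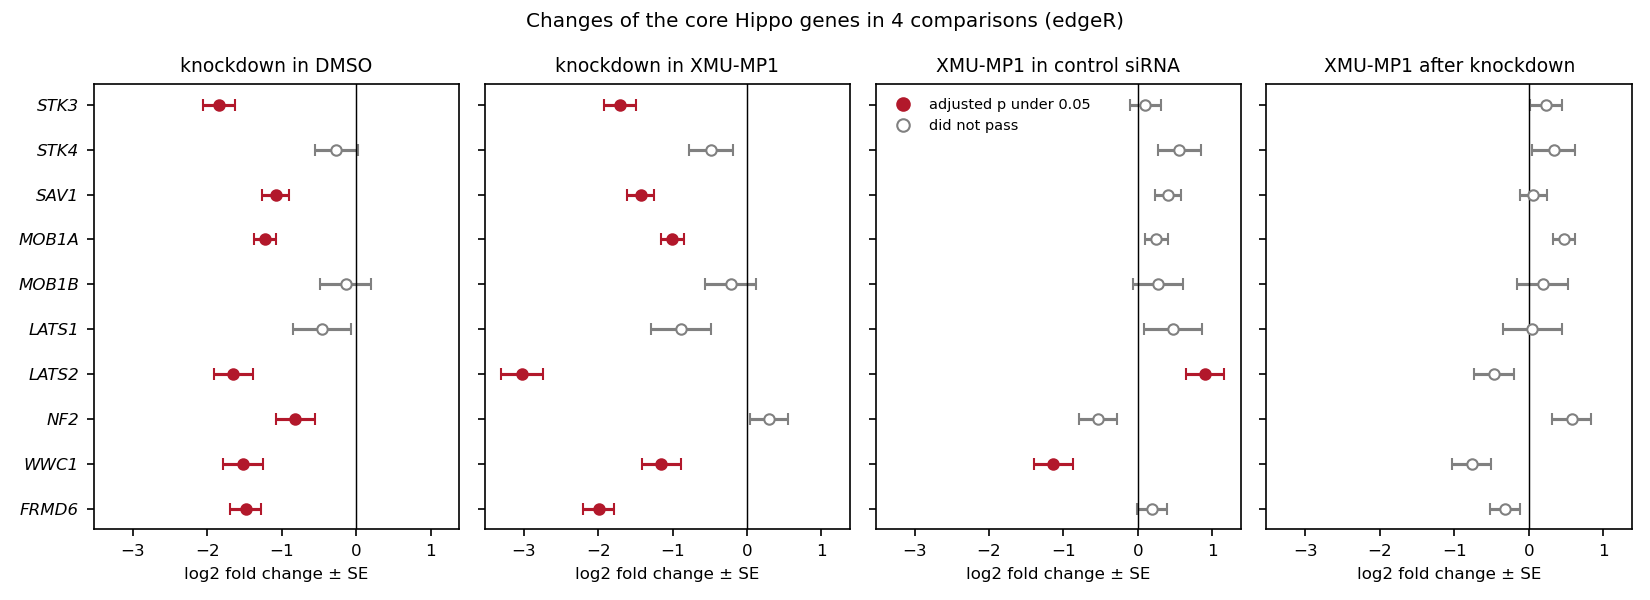
Log2 fold change ± SE (edgeR) of each core gene in 4 comparisons, with filled points for an adjusted p under 0.05. The knockdown lowered 7 genes in DMSO and 6 in XMU-MP1, and XMU-MP1 in control siRNA shows 1 higher gene, LATS2, and 1 lower, WWC1.

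Within each pair of paralogs the share of the summed FPKM held by 1 gene was compared, because a ratio within a library does not depend on scaling between libraries. STK3 held 10.4 ± 2.05% of the MST pair (STK3 + STK4) in siYT_DMSO and 26.0 ± 5.92% in siC_DMSO, and 9.86 ± 1.40% in siYT_XMU and 20.5 ± 4.67% in siC_XMU. LATS2 held 35.0 ± 5.74% of the LATS pair in siYT_DMSO and 55.1 ± 3.86% in siC_DMSO, and 30.8 ± 10.9% in siYT_XMU and 61.6 ± 7.70% in siC_XMU (SD, n = 3 each). On the authors' lengths LATS1 had the larger share in all 6 siYT libraries and LATS2 in all 6 siC libraries, where its lowest share was 51.6%. MOB1B held 18.1 ± 3.21% of the MOB1 pair in siYT_DMSO and 9.35 ± 2.20% in siC_DMSO, and 15.3 ± 4.05% in siYT_XMU and 9.55 ± 3.30% in siC_XMU. The shares, their differences and the side of 50% on which they lie depend on the lengths behind the FPKM, while differences in the log2 ratio do not.

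Knockdown and control libraries differed in the log2 ratio of STK3 to STK4 by -1.59 in DMSO and -1.22 in XMU-MP1, in that of LATS2 to LATS1 by -1.20 and -1.91, and in that of MOB1B to MOB1A by 1.11 and 0.79. In 5 of these 6 cases the groups did not overlap, and the exact two-sided permutation p was 0.1, the smallest that 3 against 3 libraries allow. It was 0.2 for MOB1B to MOB1A in XMU-MP1. Over the 12 ratio tests the adjusted p of those 5 was 0.24, so none passes the threshold of 0.05, which this design cannot reach. Between XMU-MP1 and DMSO libraries of the same siRNA arm the log2 ratios differed by -0.45 to 0.40, with overlapping groups and exact p of 0.3 to 1.

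**Figure D4:**
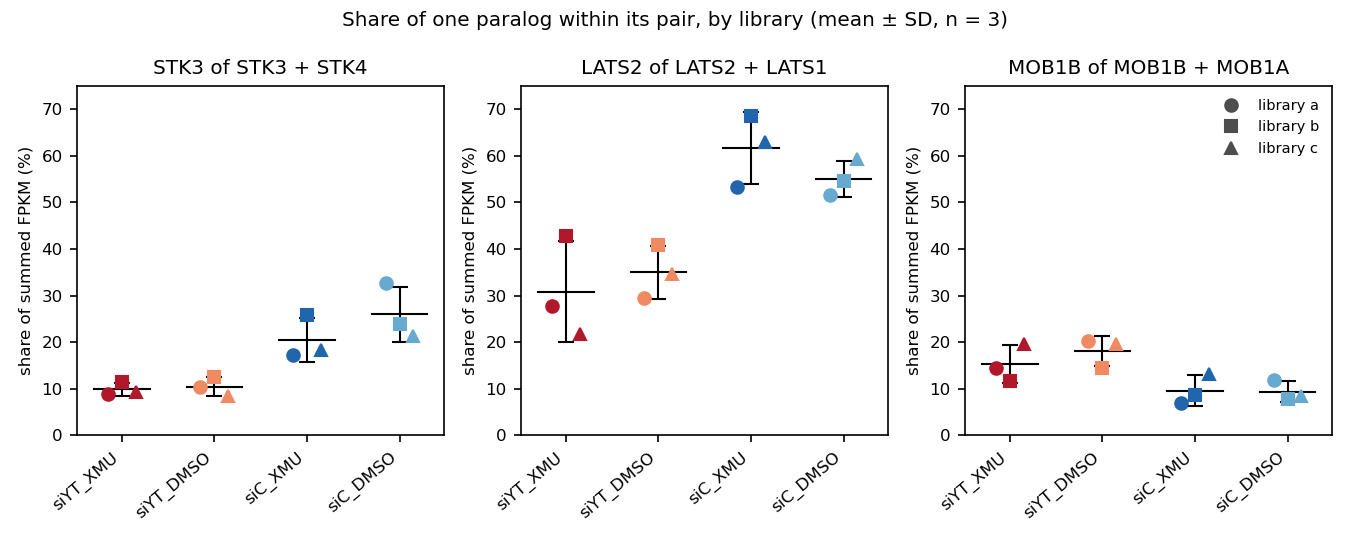
Share of the summed FPKM of a paralog pair held by STK3, LATS2 and MOB1B, in every library, with the mean and SD of 3 libraries. On the authors' lengths LATS2 lies below 50% in all siYT libraries and above it in all siC libraries, and STK3 is lower and MOB1B mostly higher in siYT than in siC libraries.

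Across the 12 libraries some core genes moved together. The log2 CPM of STK3 and FRMD6 had a Pearson r of 0.967, SAV1 and MOB1A 0.951, STK3 and SAV1 0.946 and LATS2 and FRMD6 0.944. The libraries fall into 4 groups, and with the group means removed r was 0.682 for STK3 and FRMD6, 0.666 for SAV1 and MOB1A, 0.0577 for STK3 and SAV1 and -0.0112 for LATS2 and FRMD6. NF2 followed the others least over all 12 libraries, with r of at most 0.420 (with MOB1B). The highest r was 0.635 for MOB1B and 0.679 for STK4, both with LATS1. This rank of NF2 did not hold without library c of siYT_XMU, where NF2 reached 0.746 with WWC1 and MOB1B at most 0.588 (with LATS1). Up to 2 genes of most alike profile were named for each core gene among 11094 with a mean FPKM of at least 1. For STK3 they were SKP2 (r = 0.989) and CENPF (0.987), for SAV1 MASTL and CCP110 (0.993 each), and for MOB1A API5 (0.991). FRMD6 was followed by INCENP (0.993) and GNE (0.989), LATS2 by FOXP4 and LRRC37BP1 (0.973 each), and WWC1 by DENND2B (0.983) and FJX1 (0.979). LATS1 was most like PHC3 (0.952) and PIP4K2A (0.926), and NF2 most like URB1 (0.934) and HNRNPA1P4 (0.905). The best matches of STK4, CAPRIN2 (0.875) and MED1 (0.865), and of MOB1B, GANAB (0.809) and RPS6KB1 (0.729), were looser. These are descriptions over 12 libraries in 4 groups.

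Promoter windows from RefSeq (GRCh38.p14) were found for 9 of the 10 genes, all but STK3. STK3 had the lowest log2 fold change of the core genes in the knockdown in DMSO (-1.84) and was not searched. There were 12 windows in all, each running over 250 bases before and 50 from a transcript start. They were searched for CATTCC, the TEAD motif, on both strands, and for TGANTCA, an AP-1 motif that is its own reverse complement and does not overlap with the first. CATTCC occurs in 14% of all 35116 windows and TGANTCA in 7.71%. Among the 9 core genes with a window the TEAD letters were found in that of LATS2 alone. They lie on the reverse strand as GGAATG, beginning at base 10 from the RefSeq start. That start and these letters lie upstream of the gene span given above for LATS2. LATS2 also had the lowest log2 fold change of the core genes in the knockdown in XMU-MP1, and its site is shown for that reason, followed by the bases before its start. Capitals mark the motif. The site lies at chr13:21061561-21061590 and the upstream stretch at chr13:21061587-21061836, both on the minus strand.
LATS2 site: acgtgacgcccgtGGAATGccaacaatgta
LATS2 upstream: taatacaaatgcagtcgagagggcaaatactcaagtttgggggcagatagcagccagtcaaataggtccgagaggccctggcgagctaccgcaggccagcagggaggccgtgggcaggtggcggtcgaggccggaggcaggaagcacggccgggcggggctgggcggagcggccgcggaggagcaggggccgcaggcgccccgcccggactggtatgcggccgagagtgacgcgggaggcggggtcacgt

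The LATS1 site is shown as 1 example of the AP-1 letters, and not every window with them is given. LATS1 did not pass edgeR's test in any comparison of the fit to all 12 libraries. In LATS1 the letters begin 245 bases before the RefSeq start of its more upstream window (chr6:149718322-149718351, minus strand). That start lies inside the gene span given above, and the site lies before the span. Capitals mark the letters again.
LATS1 site: aggatTGAATCAaccaagtaggctgggcgg

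Windows of the core genes were mostly rich in G and C: LATS2 had 67.7% GC and 29 CpG dinucleotides, SAV1 72% and 39, and WWC1 72.7% and 31, against a median of 58.7% and 14 over all windows. FRMD6 was an exception with 44% GC and 3 CpG, and so was the inner window of LATS1 with 30.3% and 3. Because FRMD6 fell with LATS2, SAV1 and WWC1 in the knockdown, its upstream stretch (chr14:51488878-51489099, plus strand, ending just before the gene as the table spans it) is printed for contrast with that of LATS2. It holds neither motif, which says only that these letters are not in this window.
FRMD6 upstream: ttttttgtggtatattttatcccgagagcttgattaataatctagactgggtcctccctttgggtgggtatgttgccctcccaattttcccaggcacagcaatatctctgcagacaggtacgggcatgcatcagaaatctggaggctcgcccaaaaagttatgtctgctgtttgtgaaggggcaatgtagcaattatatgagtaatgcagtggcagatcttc

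The wider pathway was counted from lists of its known parts. In the knockdown in DMSO the shares over all genes were 16.1% higher and 16% lower. Of 17 tested upstream, polarity and junction regulators 5 rose and 3 fell (median -0.03), the falls near the share of all genes. LLGL1, a polarity scaffold, rose to 120 ± 13.5 CPM in siYT_DMSO, against 42.4 ± 5.44 CPM in siC_DMSO (1.498, adjusted p = 6.09e-05). WWC2, a relative of WWC1, fell to 10.7 ± 0.170 CPM, against 37.5 ± 3.30 CPM (-1.81, adjusted p = 6.52e-05). AMOTL2, an angiomotin that binds YAP, fell to 10.5 ± 3.01 CPM, against 88.7 ± 23.3 CPM (-3.07, adjusted p = 7.37e-05). Of 11 parallel kinases that can act on LATS or beside it, 4 rose and 1 fell (median 0.61), with MAP4K4 at 551 ± 146 CPM in siYT_DMSO and 241 ± 29.2 CPM in siC_DMSO (1.19, adjusted p = 0.00267). MINK1 (0.72, adjusted p = 0.00298) and STK38L (0.72, adjusted p = 0.0228) rose too. Of 19 LATS inhibitors and members of STRIPAK, the phosphatase complex that acts on MST kinases, 4 rose and 4 fell (median -0.10), both near the shares of all genes. The falls included the LIM proteins AJUBA (7.75 ± 0.609 CPM in siYT_DMSO, against 110 ± 19.8 CPM in siC_DMSO, -3.83, adjusted p = 4.1e-05), WTIP (-2.88, adjusted p = 0.00234) and ZYX (-0.61, adjusted p = 0.00523). Of 5 tested RASSF scaffolds, partners of the MST kinases, 0 passed (edgeR), with 1 at an unadjusted p under 0.05. In the same test NF2, at an unadjusted p of 0.00871, ranked 5086 by p among the 18143 genes.

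Downstream of the core, 6 of 9 effectors fell and 1 rose (median -1.86), a count that includes YAP1 and WWTR1, the siRNA targets, where 16% of all genes were lower and 16.1% higher. TEAD4 fell to 3.99 ± 2.08 CPM in siYT_DMSO, against 37.8 ± 3.91 CPM in siC_DMSO (-3.25, adjusted p = 2.53e-05), while TEAD3 rose to 197 ± 21.4 CPM, against 48.0 ± 5.22 CPM (2.04, adjusted p = 8.45e-06). Of 20 target genes of YAP and TAZ 14 fell and 0 rose (median -1.76). CCN1, a matricellular protein, changed by -5.03 (adjusted p = 8.04e-05), MYOF, a membrane repair protein, by -1.15 (adjusted p = 0.000153) and CRIM1 by -2.12 (adjusted p = 0.000167).

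XMU-MP1 in control siRNA called fewer genes of these lists, where 4% of all genes were higher and 5.26% lower. Among the upstream regulators 0 rose and 2 fell, of which the junction protein PATJ changed by -0.71 (adjusted p = 0.0486). None of the 11 parallel kinases and 5 RASSF scaffolds passed (edgeR, with 2 and 1 at an unadjusted p under 0.05). In the same test SAV1, at an unadjusted p of 0.0417, ranked 3914 by p among the 18143 genes. Of the LATS inhibitors and STRIPAK members 2 fell, ZYX (84.4 ± 8.55 CPM in siC_XMU, against 145 ± 15.8 CPM in siC_DMSO, -0.78, adjusted p = 0.00593) and TRIP6 (38.2 ± 2.54 CPM in siC_XMU, against 146 ± 6.74 CPM in siC_DMSO, -1.93, adjusted p = 0.0114). Of the effectors TEAD3 fell (-0.71, adjusted p = 0.0215). Of the 20 target genes CCN2 rose, to 177 ± 111 CPM in siC_XMU, against 6.42 ± 2.02 CPM in siC_DMSO (4.79, adjusted p = 0.00672). FJX1 fell, to 5.94 ± 2.37 CPM in siC_XMU, against 49.1 ± 2.96 CPM in siC_DMSO (-3.05, adjusted p = 0.0038), and so did F3, tissue factor (-2.05, adjusted p = 0.0201). After knockdown XMU-MP1 called 4 of the 20 target genes higher and 3 lower, where 4.19% of all genes were higher and 7.92% lower. CCN2 was among the higher ones (3.53, adjusted p = 0.0264), and its interaction did not pass (-1.26, adjusted p = 0.624).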

How the data were processed

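RNA of 12 MCF10A libraries was measured by stranded, paired-end sequencing of polyadenylated RNA on a NovaSeq instrument, per the labels' protocols. The submitters' processing notes name cutadapt, FastQC, HISAT2, StringTie, edgeR and GRCh38.p13, and their roles and versions are not given in the sources used here. Per the file headers, the deposited table holds whole-number read counts and FPKM for each library. The authors' FPKM are scaled to library totals and to 1 length a gene, so ribosomal RNA in a library lowers the FPKM of all other genes there, and a count of 0 is listed as 0.0001. All 24 value columns were used.

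Counts were analysed with edgeR 4.0.16 (R 4.3.3): filterByExpr kept 18143 genes, and a quasi-likelihood model of 4 group means with TMM scaling was fitted to all 12 libraries (8 residual degrees of freedom). Tests are two-sided, with Benjamini-Hochberg adjustment over all genes tested and a threshold of 0.05. SE was taken from the fold change and its F statistic. Paralog ratios were compared by exact permutation. Totals of 8243351 to 67953633 counts put the floor of 3 counts at 0.0382 to 0.622 CPM, for counting error only. On data simulated from these libraries (18143 genes, 100 changed at each size) the model called 2 to 13% of 2-fold and 34 to 63% of 4-fold changes, with 2 to 9 false calls. No libraries were identical.

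The alternatives were RLE scaling, DESeq2 1.42.0, no filter or at least 1 CPM in 3 libraries, limma-trend (3.58.1) on log2(FPKM + 0.1) and log2(FPKM + 1), scaling without ribosomal RNA and SLCO5A1, fits of the compared groups alone, the letter as a block, and leaving out each library. Members and lists were chosen with earlier results of these data known. The genes named are the 10 members, YAP1, WWTR1, up to 3 called genes of smallest adjusted p in each list for the knockdown in DMSO and for XMU-MP1 in control siRNA, and the 2 genes with the highest Pearson r of log2(CPM + 0.5) to each member. Members of a list were counted in the fit of all genes, with no set test. The 50-base stretches came from GENCODE transcripts. A few results are not reported here.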

Additional observations from a re-analysis of the deposited data

How the results depend on the processing

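Of 1040 alternative values of the core genes' changes, 961 kept direction and side of the threshold, 23 lost a call, 19 gained one and 37, none of them called, turned round. The called falls of STK3, SAV1, MOB1A, LATS2, WWC1 and FRMD6 in both knockdown comparisons held in all 21 alternatives each, and 6 to 8 core genes were called there under every alternative. In the knockdown in XMU-MP1 limma-trend added LATS1 and STK4, both lower. On FPKM + 0.1 LATS1 was at -1.55 (adjusted p = 0.00262) and STK4 at -1.005 (adjusted p = 0.0213). On FPKM + 1 the adjusted p was 0.00172 for LATS1 and 0.0205 for STK4. For XMU-MP1 in control siRNA the number of core genes called was 1 with RLE and with no filter, 0 on FPKM + 0.1, 4 with only the groups compared (SAV1 and LATS1 added) and 0 to 2 without 1 library. After knockdown it was 1 with RLE and with the 1 CPM filter (MOB1A, higher), and 1 on FPKM + 0.1 or + 1 (WWC1, lower). It was 2 with DESeq2, and 0 to 1 without 1 library. For the interaction it was 2 with DESeq2, 1 on FPKM + 1 and 0 to 2 without 1 library, and a fit of compared groups alone does not exist, as all 4 enter it. Over all genes, calls for XMU-MP1 in control siRNA numbered 1680, against 3089 (DESeq2), 1086 (FPKM + 0.1), 4044 (compared groups) and 629 to 2661 without 1 library. After knockdown they numbered 2198, against 3776 (DESeq2), 3302 (FPKM + 0.1), 3414 (FPKM + 1), 866 (compared groups) and 1159 to 2885 without 1 library, and for the interaction 470, against 1828 (DESeq2), 715 (FPKM + 1) and 86 to 1006 without 1 library. The causes were not tested.

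No log2 fold change that turned round was called. On FPKM + 0.1 and FPKM + 1 NF2 in the knockdown in XMU-MP1 was at -0.27 and -0.25. After knockdown XMU-MP1 gave, on the same scales, -0.16 and -0.066 for STK3, -0.0995 and -0.083 for STK4, -0.37 and -0.29 for SAV1, -0.25 and -0.17 for MOB1B and -0.53 and -0.33 for LATS1. The interaction gave -0.18 and -0.083 for STK3, -0.12 and -0.11 for MOB1A, and, for MOB1B, 0.013 with RLE and 0.0075 with DESeq2. FPKM are not adjusted for composition: on FPKM + 0.1 the median gene moved by -0.43 in the knockdown in XMU-MP1 and -0.36 for XMU-MP1 after knockdown, and the share of calls that were higher was 37.0% in the knockdown in DMSO, against 50.3%, 24.2% in that in XMU-MP1, against 48.8%, 28.9% for XMU-MP1 in control siRNA, against 43.2%, and 19.4% after knockdown, against 34.6%. RLE moved the median to 0.13 in the knockdown in XMU-MP1, and DESeq2 to 0.27 for the interaction, where 48.5% of calls were higher, against 33.2%. After knockdown that share was 46.6% with DESeq2, against 34.6%. Without 1 library MOB1B ranged over -0.29 to 0.16 (knockdown in DMSO), -0.46 to 0.12 (in XMU-MP1), -0.083 to 0.57 (XMU-MP1 in control siRNA), -0.046 to 0.43 (after knockdown) and -0.38 to 0.27 (interaction). NF2 in the knockdown in XMU-MP1 ranged over -0.060 to 0.46, SAV1 and LATS1 after knockdown over -0.13 to 0.15 and -0.72 to 0.38, and the interactions of STK4 and STK3 over -0.42 to 0.01 and -0.0083 to 0.28. The log2 ratio shifts by XMU-MP1 ranged over -0.24 to 0.077 (STK3 to STK4, after knockdown), -0.71 to 0.0044 (LATS2 to LATS1, after knockdown) and -0.29 to 0.24 (MOB1B to MOB1A, control siRNA).

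The letters do not pair the libraries by the labels. Deviations from group means correlated at 0.011 to 0.25 between libraries of the same letter in different groups, over 0.1 in 8 of 18 pairs. Between libraries of different letters and groups they correlated at -0.19 to 0.075. Each of the 12 libraries was closest to libraries of its letter, and the main fit has no term for the letter. With the letter as a replicate block the core genes called numbered 7, 6, 2, 0 and 0 over the 5 comparisons, the same as without it, and LATS1 after knockdown turned to -0.058.

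Depth limits library c of siYT_XMU most, where LATS2 rests on 34 counts. At 3 libraries a group, 2-fold changes were mostly missed in simulated data. The changed genes there were drawn at random from all genes tested, so the rates are not those of the core genes. Only 100 genes changed at each size there, while the data called 5826 in the knockdown in DMSO and 6600 in that in XMU-MP1. With fewer changed genes an adjusted p under 0.05 is harder to reach, so these rates do not give the power of the knockdown comparisons. An uncalled gene is still not shown to be unchanged.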
